A study of Mus musculus with 4 samples.

Results

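Gene expression after bacterial lipopolysaccharide (LPS) was compared with that after saline in the amygdala of mice that lack the P2X7 receptor, using every knockout array of the series, 8 of 16. The knockout LPS group and the knockout saline group held 4 arrays each. All mice were P2X7R KO males on the C57BL/6J strain, aged 10 weeks, and whole amygdalae were taken 6 h after 1 intraperitoneal injection. The dose is given as 7.5 µg per mouse in the labels and as 250 µg/kg in the deposited lists. Both groups carried the same loss of the receptor, so the comparison measures LPS against saline where P2X7 is missing and not the effect of the deletion. The labels count 4 mice in each group but do not tie single arrays to mice, and p-values therefore measure the spread between arrays. The tissue was measured in bulk, in which fewer cells of a type and less RNA per cell cannot be told apart.

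LPS, a component of the wall of Gram-negative bacteria, is passed by Lbp and Cd14 to Tlr4 with Ly96 and signals through a pair of adaptors. Myd88 leads to NF-kB and to cytokines such as interleukin-1 and interleukin-6, while Ticam1 leads to type I interferon, whose receptors act through Stat2, Irf9 and related factors on a DNA element called the interferon-stimulated response element (ISRE). LPS injected into the body hardly enters the brain, and the cells of its vessels and membranes are known to be among the first in the brain to respond. P2X7 is an ATP-gated ion channel of microglia, macrophages and other cells, best known for triggering the inflammasome and the release of mature interleukin-1 beta after LPS has raised its precursor.

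The targeted gene, P2rx7, was read by 2 probes. At the brighter one, at chr5:123134194-123134253 (mm9), levels ran from −1.7 to −0.80 on the 8 knockout arrays and from −0.15 to 0.90 on the 8 wild-type arrays (log2 over the array's own 75th percentile, the scale of all levels here). At the dimmer probe, at chr5:123120528-123123413, the knockout range of −4.18 to −3.26 lay inside that of wild type. The brighter probe still read well above background on all 8 knockout arrays. The dimmer one did so on all 4 knockout saline arrays and on 3 of the 4 knockout LPS arrays. The source of this signal was not tested. Only the brighter probe separated the genotypes, and the sources used here do not place either probe inside or outside the deleted stretch. Wild-type arrays lay on slides 1 and 2 and knockout arrays on slides 3 and 4, so genotype and slide cannot be told apart. LPS changed P2rx7 itself by −0.26 ± 0.20 (change in log2 ± SE), which did not pass the test.

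The 75th percentile of intensity ran from 345.9 to 614.0 over the 8 arrays, with 58.1% to 67.6% of probes on each reading well above background. All 15 neuronal marker genes were tested, and their mean level ran only from 3.83 to 4.04 over the 8 arrays. Of the 14 markers of striatum and central amygdala all were tested as well. Saline replicate 1 stood apart from every other array. It differed from the mean of the other saline arrays by over 1 log2 unit at 4979 of 18270 genes, against 461 to 815 for the other saline arrays and 123 to 562 among the LPS arrays. The probes of the 500 genes that lay lowest on it had a median GC content of 35.0% and those of the 500 highest 45%, against 41.7% over all genes. Markers of hippocampus, cortex and basolateral amygdala averaged −0.49 on it and 0.59 to 0.71 on the other saline arrays. Counts over all genes are therefore given with and without this array, and counts over a list are given without any array that moved them by over 1.5 times. Saline replicate 4 had a spike-in variation of 19.0%, against 3.2% to 6.6% on the other arrays.

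**Figure D1:**
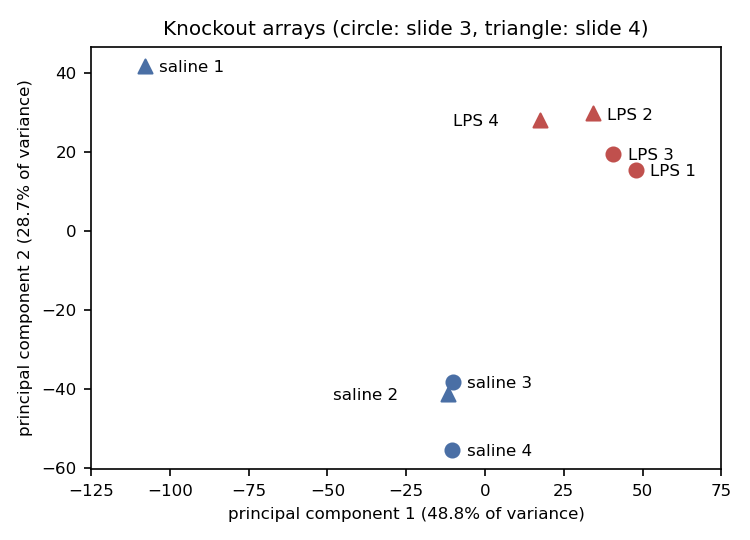
The 8 knockout arrays by their first and second principal component over all genes tested, with the share of variance on each axis. Blue marks saline and red LPS, circles slide 3 and triangles slide 4. The 4 LPS arrays lie together at the right, 3 saline arrays lie together at the bottom, and saline replicate 1 lies alone at −108 on the first component.

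LPS changed 902 of 18270 genes at an adjusted p under 0.05, of which 590 (3.23% of the genes tested) rose and 312 (1.71%) fell, so that 4.94% were called in all. Of the risen genes 508 rose at least 2-fold and 129 at least 8-fold, and of the fallen genes 195 fell at least 2-fold and 5 at least 8-fold, on the fitted scale. The median change of all genes tested was −0.10. The largest fitted rise was that of Cxcl10, a chemokine for activated T cells. Saa3 was close to it on the fitted scale (9.76) but not well above background on any saline array, so the order of these genes is open. The largest fall with signal well above background in both groups was that of Slc38a5, a glutamine transporter of brain vessels. All 902 genes changed in the same direction within slide 3 and within slide 4. The calls came from a fit to these same arrays with slide as a block, so this shared direction is not separate evidence. The groups did not overlap at 584 of the risen and 302 of the fallen genes, so a lack of overlap adds little to a call. Without saline replicate 1, 911 genes rose (4.99%) and 837 fell (4.58%), and these held all 590 of the risen and 310 of the 312 fallen genes. Leaving out any 1 of the other 7 arrays gave 442 to 617 rises and 132 to 449 falls. Normexp background correction, which here adds an offset to every signal, gave 442 rises and 163 falls. Of 26 gene lists with a median change of at least 0.5 in size, 18 had a median over 1.5 times smaller under it.

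**Figure D2:**
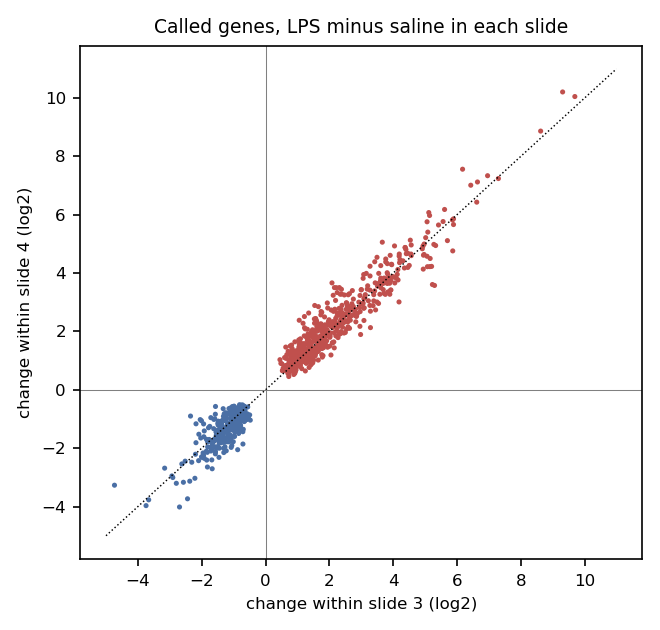
Change of the 902 called genes (log2, LPS minus saline) within slide 3 on the horizontal axis and within slide 4 on the vertical axis, each from 2 arrays per group. Red genes rose and blue genes fell, and the dotted line marks equal change. Every gene lies in the lower left or the upper right part of the plot. The calls were made on these same arrays, which favours such agreement.

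Sequences of the promoters of 6 risen genes are shown because they carry letters that are known to be bound by the factors of both LPS pathways. Each run is the 250 bases before the transcription start in RefSeq (GRCm38.p6), 5′ to 3′ on the strand of the gene, with motif matches in capitals. 3 motifs were searched on both strands, namely GAAA and, after 2 bases of any kind, GAAA (the ISRE core), GGG and, after 2 bases of any kind, TTTCC (a kB site, bound by NF-kB) and TTGCNNAA (a site of C/EBP factors). The genes were chosen for having a match after their change was known.
Cxcl10: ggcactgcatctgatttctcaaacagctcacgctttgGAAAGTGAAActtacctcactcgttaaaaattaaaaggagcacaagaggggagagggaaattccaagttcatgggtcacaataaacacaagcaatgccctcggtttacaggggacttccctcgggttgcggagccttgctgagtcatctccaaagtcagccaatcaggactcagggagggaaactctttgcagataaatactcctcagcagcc
Cxcl1: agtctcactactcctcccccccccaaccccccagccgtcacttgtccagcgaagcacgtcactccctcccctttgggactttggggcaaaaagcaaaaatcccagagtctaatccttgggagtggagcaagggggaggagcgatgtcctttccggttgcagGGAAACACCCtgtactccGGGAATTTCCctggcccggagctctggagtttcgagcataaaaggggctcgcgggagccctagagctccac
Saa3: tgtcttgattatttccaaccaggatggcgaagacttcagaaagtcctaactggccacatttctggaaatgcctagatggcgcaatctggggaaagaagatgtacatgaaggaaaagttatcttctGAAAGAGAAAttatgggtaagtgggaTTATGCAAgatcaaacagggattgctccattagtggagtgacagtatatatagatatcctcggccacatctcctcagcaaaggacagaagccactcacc
Gbp2: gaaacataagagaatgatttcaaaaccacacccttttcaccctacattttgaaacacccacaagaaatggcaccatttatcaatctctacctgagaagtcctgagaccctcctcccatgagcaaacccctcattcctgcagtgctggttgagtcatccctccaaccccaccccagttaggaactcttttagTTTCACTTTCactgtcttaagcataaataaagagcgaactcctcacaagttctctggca
Isg15: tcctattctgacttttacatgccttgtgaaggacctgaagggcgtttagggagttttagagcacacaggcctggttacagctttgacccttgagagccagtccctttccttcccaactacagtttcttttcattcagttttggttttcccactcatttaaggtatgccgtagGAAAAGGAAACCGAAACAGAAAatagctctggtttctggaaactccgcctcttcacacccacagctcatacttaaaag
Ifit1: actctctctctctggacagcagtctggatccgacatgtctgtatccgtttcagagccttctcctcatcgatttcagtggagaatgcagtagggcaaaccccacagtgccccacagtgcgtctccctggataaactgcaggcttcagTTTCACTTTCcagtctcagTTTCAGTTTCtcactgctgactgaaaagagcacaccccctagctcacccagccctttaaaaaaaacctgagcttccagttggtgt
The Cxcl10 promoter (chr5:92348890-92349139, minus strand) held 1 ISRE core, 213 to 204 bases before the start, and that of Gbp2 (chr3:142620413-142620662, plus strand) 1, at 59 to 50 bases. That of Isg15 (chr4:156200819-156201068, minus strand) held 3 overlapping ISRE cores between 78 and 57 bases, and that of Ifit1 (chr19:34640639-34640888, plus strand) 2. The Cxcl1 promoter (chr5:90890995-90891244, plus strand) held 2 kB matches, at 89 to 80 and 71 to 62 bases. The Saa3 promoter (chr7:46715677-46715926, minus strand) held an ISRE core at 125 to 116 bases and a C/EBP match at 99 to 92 bases. Over promoter windows of 300 bases (250 before and 50 after the start), an ISRE core was found in 3.44% of all 32851 RefSeq promoters, in 3.0% of the 14347 promoters of genes tested here, in 15.2% of the 488 promoters of risen genes and in 2.68% of the 224 of fallen genes. A kB match was found in 1.63%, 1.6%, 5.33% and 3.57% of them, and a C/EBP match in 10.8%, 8.56%, 15.2% and 9.82%. A match describes the letters only and was not tested as a binding site.

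Genes that sense LPS rose in part. Tlr2, the receptor for bacterial lipoproteins, and Cd14, the LPS co-receptor, rose most, whereas Tlr4 and its partner Ly96 did not pass the test. Of 21 genes of LPS sensing on the array 17 were tested, of which 10 rose and none fell, with a median change of 1.34 against −0.10 over all genes. The levels of Tlr2 were −2.79, −3.1, −2.95 and −3.19 on the saline arrays and 1.19, 1.45, 1.29 and 1.5 on the LPS arrays. Those of Cd14 were −0.94, −1.93, −1.93 and −1.6 on the saline arrays and 1.78, 2.15, 1.92 and 2.63 on the LPS arrays. The groups did not overlap for either gene, and Tlr2 rose by 4.36 ± 0.14 (adjusted p = 1.69e-06) and Cd14 by 3.72 ± 0.24 (adjusted p = 4.51e-05). Further rises were those of Lbp, which carries LPS to Cd14 (1.98 ± 0.22), the adaptor Myd88 (1.77 ± 0.12), the brake Irak3 (at least 4.28-fold, adjusted p = 0.000575) and the RNA sensor Tlr7 (1.34 ± 0.19). Such bounds compare the bright group's mean with the lowest signal that counted as well above background on the dim arrays. The adjusted p beside a bound belongs to the fitted change, dim levels included, and does not test the bound. Tlr4 changed by 0.45 ± 0.27, Ly96 by −0.16 ± 0.33 and Ticam1 by 0.07 ± 0.25. Tlr1 and Tlr6, partners of Tlr2, were not well above background on any saline array and rose at least 3.24-fold (adjusted p = 0.00201) and at least 2.26-fold (adjusted p = 0.000984). 3 LPS-sensing genes passed the filter only through the LPS arrays, which favoured a rise. Under normexp background correction Tlr1 and Tlr6 were not called, and the LPS-sensing genes held 7 rises with a median of 0.545.

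Inhibitors and atypical members of the NF-kB family rose, while most of its main subunits did not pass the test. Of 14 tested genes 6 rose, namely Bcl3 (4.12 ± 0.19), Nfkbiz (2.83 ± 0.40), Map3k8 (2.37 ± 0.14), Nfkb2 (1.95 ± 0.25), Nfkbia (1.64 ± 0.18) and Nfkbie (1.47 ± 0.16). Bcl3 and Nfkbiz are nuclear partners of NF-kB, Nfkbia and Nfkbie hold it in the cytoplasm, and Map3k8 is a kinase above the MAP kinases. Bcl3 stood at −2.11, −2.7, −2.7 and −2.23 on the saline arrays and 1.52, 1.83, 1.45 and 1.94 on the LPS arrays, with no overlap. Rela changed by 0.45 ± 0.18 and Nfkb1 by −0.07 ± 0.24, neither called with all 8 arrays. Relb (0.84 ± 0.21) and Rela were called without saline replicate 1 (adjusted p = 0.00363 and 0.0376). Feedback inhibitors rose at 11 of 19 genes with a median of 1.7, which was 0.915 under normexp background correction. They included Il1rn, which blocks the interleukin-1 receptor, (at least 11.8-fold, adjusted p = 9.08e-05), the interferon brake Usp18 (3.83 ± 0.18), the cytokine brake Socs3 (3.73 ± 0.17), the MAP kinase phosphatase Dusp2 (1.72 ± 0.19), and Zc3h12a and Zfp36, which speed the decay of cytokine mRNA (2.88 ± 0.40 and 2.76 ± 0.17). Socs3 stood at 0.70, 0.24, 0.27 and 0.35 on the saline arrays and 3.88, 4.06, 4.37 and 4.18 on the LPS arrays. Tnfaip3, which removes ubiquitin from the NF-kB pathway, rose by 1.72 ± 0.17 (adjusted p = 0.000543). 1 NF-kB gene and 3 feedback inhibitor genes passed the filter only through the LPS arrays, which favoured a rise. Nfkb1 changed by 0.05, 0.68 and 0.83 at its other probes (lowest adjusted p = 0.0167).

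Chemokines stood among the largest rises of the comparison. Cxcl10, Ccl2, which draws monocytes, and Ccl5, which draws T cells and monocytes, led those well above background on at least 1 saline array. On saline replicate 1 Cxcl10 lay below Cxcl1 (−6.53), which was not well above background there, so its fitted rise rests in part on a dim level. Of 17 CC chemokines on the array 15 were tested and 9 rose, and of 16 CXC chemokines, chemokine receptors and fractalkine 11 were tested, 7 rose and 2 fell. Of these, 4 and 5 passed the filter only through the LPS arrays, which favoured a rise. With only probes well above background on all 8 arrays, 2 of the CXC list rose and 2 fell. The list median was then −0.335, against 2.52. Cxcl10, read at chr5:92775781-92775840 (mm9), stood at −6.63, −4.99, −5.34 and −5.55 on the saline arrays and 4.03, 4.2, 4.46 and 4.29 on the LPS arrays, and rose by 9.87 ± 0.33 (adjusted p = 1.76e-06). Ccl2, at chr11:81850650-81850709, stood at −5.2, −4.44, −4.54 and −4.62 on the saline arrays and 3.88, 4.32, 4.22 and 3.78 on the LPS arrays, and rose by 8.74 ± 0.22 (adjusted p = 6.95e-07). Ccl5 rose by 7.15 ± 0.23 (adjusted p = 1.69e-06), from −2.44 to −1.68 on the saline arrays to 4.77 to 5.55 on the LPS arrays. All 3 genes were low on every saline array and high on every LPS array. Bounds alone can be given for Cxcl1 (at least 39.9-fold, adjusted p = 5.25e-07), Ccl7 (at least 24.9-fold, adjusted p = 1.4e-05), Ccl3 (at least 21-fold, adjusted p = 1.94e-05), Cxcl9 (at least 13.3-fold, adjusted p = 1.68e-06), Cxcl11 (at least 6.79-fold, adjusted p = 2.36e-05) and Ccl11 (at least 5.28-fold, adjusted p = 3.49e-05), none of which lay well above background on any saline array. Further rises were those of Ccl4 (4.93 ± 0.43), Ccl12 (3.86 ± 0.26), Ccl9 (2.93 ± 0.27), Cxcl16 (2.52 ± 0.17) and Ackr3 (1.92 ± 0.28), of which Ackr3 is a scavenger of Cxcl12.

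Cxcl12, which retains leukocytes outside the brain vessels, and Cx3cr1, the fractalkine receptor of microglia, were the members that fell. Cxcl12 stood at 2.2, 2.51, 1.97 and 2.26 on the saline arrays and −0.48, −0.21, −0.54 and −0.15 on the LPS arrays, with no overlap, and fell by 2.58 ± 0.14 (adjusted p = 2.16e-05). This holds for 1 of its 2 probes, since the other, dimmer one changed by −0.07. Cx3cr1 changed by −1.16 ± 0.17 (adjusted p = 0.00542) and by −0.34 at its other probe. Fractalkine itself, Cx3cl1, changed by −0.31 ± 0.15 and was not called.

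**Figure D3:**
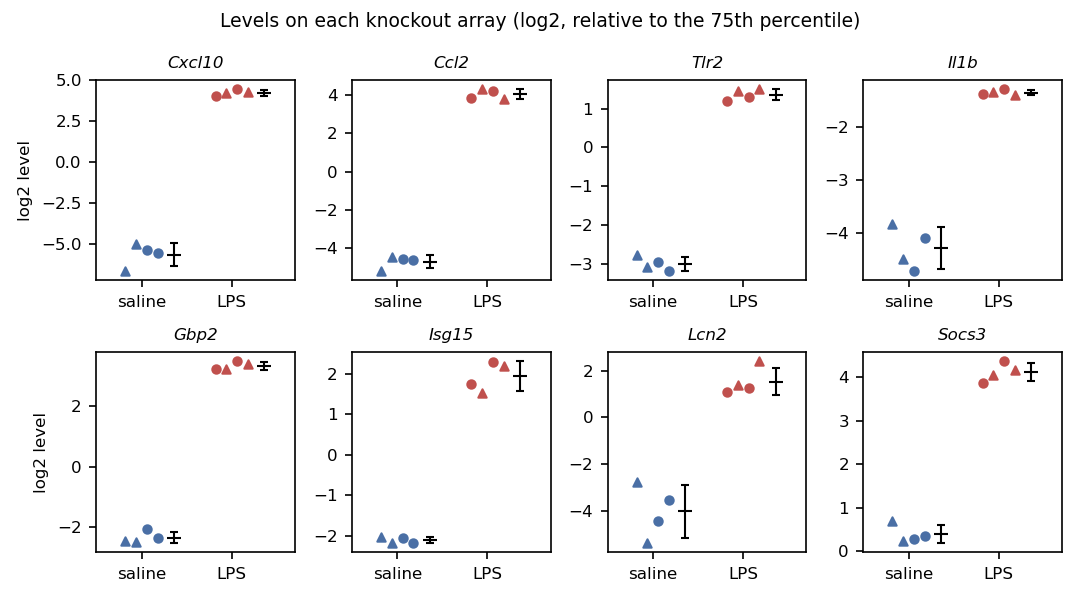
Levels (log2 over the 75th percentile of the array) of 8 risen genes on each knockout array, blue for saline and red for LPS, with circles for slide 3 and triangles for slide 4. Black bars show the mean and SD of 4 arrays. The groups do not overlap for any of the 8 genes.

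Among the cytokines of the interleukin-1, tumour necrosis factor and interleukin-6 families and their receptors, 9 of 19 tested genes rose and none fell. Csf3, the growth factor of neutrophils, and Il6 were not well above background on any saline array and rose at least 25.6-fold (adjusted p = 1.6e-06) and at least 7.18-fold (adjusted p = 1.69e-06). Il1b, the precursor that the inflammasome cleaves, stood at −3.83, −4.48, −4.71 and −4.09 on the saline arrays and −1.38, −1.33, −1.28 and −1.38 on the LPS arrays, with no overlap, and rose by 2.94 ± 0.20 (adjusted p = 6.93e-05). Receptors rose as well, with 3.77 ± 0.17 for Osmr, the receptor of oncostatin M, 1.7 ± 0.20 for Tnfrsf1a and 1.93 ± 0.18 for Tnfrsf1b, although the other probe of Tnfrsf1b changed by only 0.03. Il1r1, the signalling receptor of interleukin-1, changed by 3.38 ± 1.07 and was not called (adjusted p = 0.156). Saline replicate 4 lay far below the other saline arrays for this gene, and without it the change was 2.02 (adjusted p = 0.00108). Tnf rose at least 1.6-fold (adjusted p = 0.00424) over saline arrays that were all at background. Il18, Il33 and Il15 changed by 0.21, 0.22 and −0.54, and none was called. 4 cytokine and receptor genes passed the filter only through the LPS arrays, which favoured a rise. With normexp background correction the call of Tnf was lost.

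The inflammasome is the machine that P2X7 is known to trigger. Of 14 tested genes 6 rose, with a median of 0.59, and without saline replicate 1 there were 8. Casp4, the intracellular sensor of LPS, rose by 3.69 ± 0.18 (adjusted p = 9.64e-06), from −2.51 to −1.99 on the saline arrays to 0.97 to 1.89 on the LPS arrays. Mefv, the pyrin sensor, rose at least 2.18-fold (adjusted p = 0.000234), and the peptidoglycan sensor Nod2 rose by 1.8 ± 0.26. Nlrp3, the sensor downstream of P2X7, changed by −0.15 ± 0.15, its partner Casp1 by 0.32 ± 0.15 and the channel Panx1 by −0.11 ± 0.13, and none of them was called. Aim2, Nlrc4 and Nlrp1a did not pass the filter on dim probes. The adaptor Pycard changed by 0.97 ± 0.20 (adjusted p = 0.0266), and Naip2 by 0.95 ± 0.16 (adjusted p = 0.0115). 1 inflammasome gene passed the filter only through the LPS arrays, which favoured a rise. The call for Pycard was lost without any 1 of saline replicates 2, 3 and 4 and LPS replicates 1, 3 and 4 (adjusted p up to 0.115). Naip2 was no longer called without any 1 of saline replicate 3 and LPS replicates 2 and 3, with an adjusted p of up to 0.0584. The call of Mefv and Naip2 was not made after normexp background correction, which gave 4 rises in the list and a median of 0.364.

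Other receptors and enzymes of extracellular ATP and adenosine moved in both directions. Of 24 tested genes 5 rose and 1 fell, with a median of −0.01. The nucleotide receptor P2ry2 stood at −3.27, −4.09, −4.13 and −4.27 on the saline arrays and −1.29, −1.07, −1.18 and −0.94 on the LPS arrays, and rose by 2.82 ± 0.20 (adjusted p = 7.07e-05). Rises were also found for Ada, which breaks down adenosine (2.15 ± 0.14), for Nt5e, which makes it from AMP (1.62 ± 0.29), and for its receptors Adora2b (1.18 ± 0.17) and Adora3 (at least 2.77-fold, adjusted p = 9.25e-05). Entpd1, the ectonucleotidase of microglia and vessels, fell by 1.11 ± 0.22 (adjusted p = 0.0238), and by 0.35 at its other probe. P2ry12 changed by −1.48 ± 1.04, P2ry6 by 1.52 ± 0.41 and P2rx4, the channel most like P2X7, by 0.02 ± 0.18, and none of these was called with all 8 arrays. 1 purinergic gene passed the filter only through the LPS arrays, which favoured a rise. 1 purinergic gene passed it only through the saline arrays, which favoured a fall. For the purinergic genes, falls numbered 0 without any 1 of saline replicate 3 and LPS replicates 1, 3 and 4, 2 to 3 without any 1 of saline replicates 1 and 2, 0 under normexp and 2 with all 16 arrays, against 1. Leaving out any 1 of LPS replicates 1, 2 and 4 ended the call of Nt5e (adjusted p up to 0.0545). Without any 1 of saline replicates 3 and 4 and LPS replicates 1, 2, 3 and 4 the call of Entpd1 did not hold (adjusted p up to 0.103). Under normexp background correction Adora3 and Entpd1 were not called.

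All 16 interferon-inducible GTPases on the array, which attack the compartments of intracellular microbes, were tested and rose, with a median change of 3.85, and 4 of them passed the filter only through the LPS arrays. Gbp2 stood at −2.44, −2.49, −2.07 and −2.34 on the saline arrays and 3.24, 3.21, 3.48 and 3.38 on the LPS arrays, with no overlap, and rose by 5.67 ± 0.14 (adjusted p = 6.95e-07). Iigp1 rose by 5.14 ± 0.17 (adjusted p = 1.69e-06) and Gbp3 by 4.26 ± 0.18 (adjusted p = 5.75e-06). Gbp6 (at least 48.1-fold, adjusted p = 3.41e-06) and Gbp4 (at least 16.2-fold, adjusted p = 5.38e-05) were not well above background on any saline array. The rises of Tgtp1 and Gbp5 were 4.82 ± 0.27 and 4.63 ± 0.18. Members of this family are similar in sequence, and their probes may share signal. Tgtp1 changed by 0.62 at its other probe.

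Antiviral effectors and sensors of foreign RNA or DNA rose at 26 of 29 tested genes, with a median of 2.69, and none fell. Isg15, a ubiquitin-like protein joined to other proteins, stood at −2.03, −2.18, −2.05 and −2.18 on the saline arrays and 1.75, 1.51, 2.28 and 2.2 on the LPS arrays, with no overlap, and rose by 4.04 ± 0.20 (adjusted p = 1.11e-05). Zbp1, the sensor of Z-form nucleic acid, rose by 5.41 ± 0.30 (adjusted p = 2.16e-05) and Rsad2, known as viperin, by 4.99 ± 0.25 (adjusted p = 1.25e-05). Oasl1 rose at least 26.1-fold (adjusted p = 2e-05), and Isg20 (4.65 ± 0.32), Ifi44 (4.58 ± 0.21), Ifit3b (4.44 ± 0.71) and Ifit1 (4.33 ± 0.18) rose as well. The DNA sensor Cgas (0.60 ± 0.15) and its partner Tmem173, also called STING (0.09 ± 0.17), were not called with all 8 arrays, and Ifi27 changed by −0.08 ± 0.23. 3 antiviral genes passed the filter only through the LPS arrays, which favoured a rise. Ifi27 changed by 1.2 at its other probe (lowest adjusted p = 0.0403).

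Among the signalling genes above these effectors, 5 of 22 JAK-STAT and interferon regulatory genes rose, with a median of 0.18. They included the regulators Irf7 (3.77 ± 0.27), Irf1 (2.41 ± 0.14) and Irf9 (1.39 ± 0.17) together with Stat2 (1.07 ± 0.22). The interferon receptors Ifnar1, Ifnar2, Ifngr1 and Ifngr2 changed by −0.17, −0.07, 0.47 and −0.26, and none was called. Of 18 TRIM ubiquitin ligases 8 rose, led by Trim30d (3.77 ± 0.14), Trim30a (3.66 ± 0.16) and Trim21 (1.71 ± 0.23), and 1 fell, Trim59 (−0.97 ± 0.22). 1 JAK-STAT gene and 2 TRIM genes passed the filter only through the LPS arrays, which favoured a rise. For the JAK-STAT genes, rises numbered 3 without any 1 of saline replicate 3 and LPS replicates 1 and 3, against 5. For the TRIM genes, falls numbered 0 without any 1 of saline replicates 2, 3 and 4 and LPS replicates 1, 2, 3 and 4, 0 under normexp and 0 with all 16 arrays, against 1, and the median under normexp was 0.25. The call for Stat2 was lost without any 1 of saline replicates 2, 3 and 4 and LPS replicates 1, 2, 3 and 4 (adjusted p up to 0.134). Trim59 was no longer called without any 1 of saline replicates 2, 3 and 4 and LPS replicates 1, 2, 3 and 4, with an adjusted p of up to 0.158. With normexp background correction the call of Trim59 was lost.

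Of 17 tested genes of class I presentation and the immunoproteasome 11 rose, with a median of 1.39, whereas none of 7 class II genes was called (3 at an unadjusted p under 0.05, which 16.8% of all genes tested reached, median −0.54). The peptide pump Tap1 rose at least 4.26-fold (adjusted p = 0.000742), the immunoproteasome subunit Psmb8 by 2.18 ± 0.23, and the heavy chains H2-Q7 and H2-D1 by 1.59 ± 0.21 and 1.44 ± 0.23. The heavy chain H2-K1 stood at 2.44, 2.31, 2.1 and 2.39 on the saline arrays and 4.22, 4.38, 4.16 and 4.13 on the LPS arrays, with no overlap, and rose by 1.91 ± 0.14 (adjusted p = 9.08e-05). Heavy chain genes are close copies, and their probes may share signal. Of 24 subunits of the constitutive proteasome none was called (1 at an unadjusted p under 0.05), and their median change was −0.13. Among class II genes Cd74, the invariant chain, changed by −0.10 ± 0.47 and H2-Ab1 by −0.82 ± 0.27. The mean level of the class II genes was −0.12 on saline replicate 1 and −1.26 to −0.92 on the other saline arrays. Without saline replicate 1 their median was −0.29, and none was called. 1 class I gene passed the filter only through the LPS arrays, which favoured a rise. For the class II genes, falls numbered 2 without saline replicate 2 and 1 with all 16 arrays, against 0, and the median under normexp was −0.29. The call of Tap1 was not made after normexp background correction, which gave 8 rises among the class I genes and a median of 0.876.

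**Figure D4:**
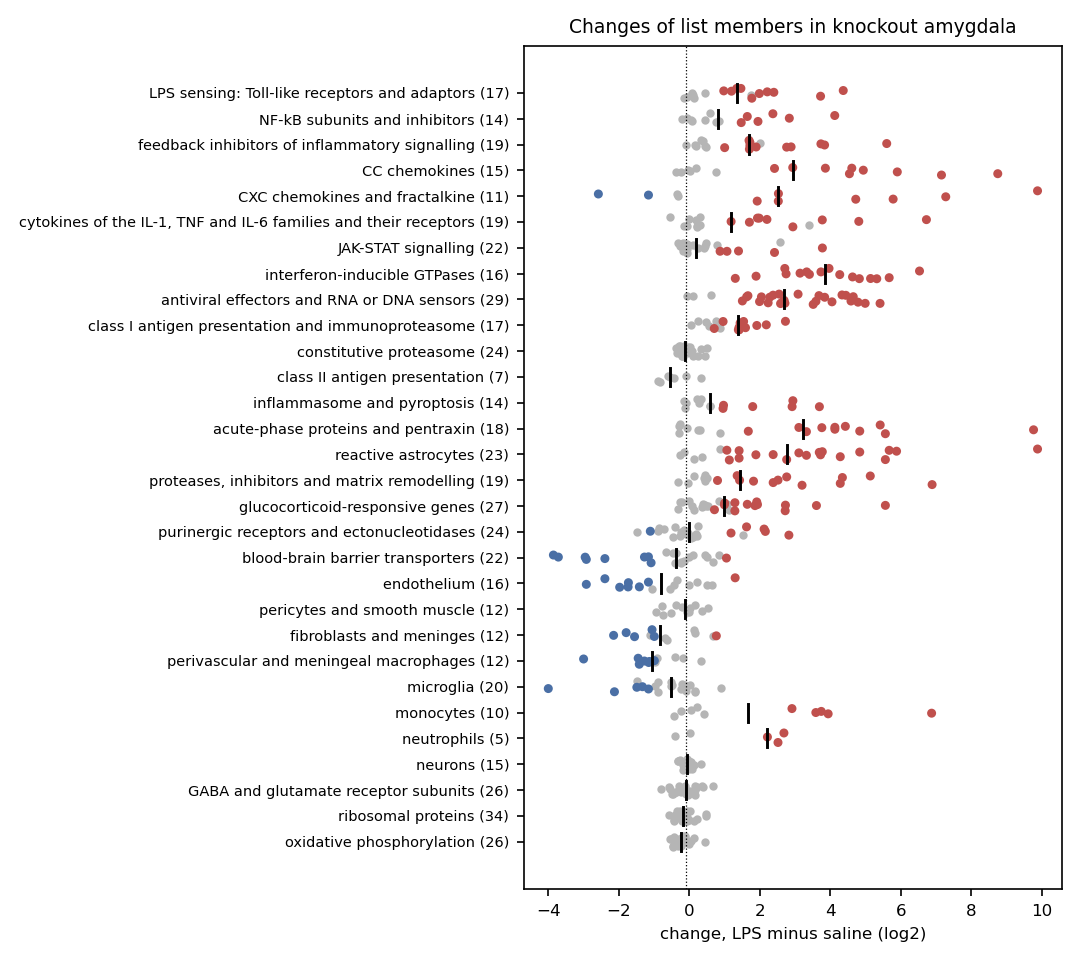
Change (log2, LPS minus saline) of each tested member of 30 gene lists in knockout amygdala, with the number tested in brackets. Red members rose, blue members fell and grey members were not called, black bars mark list medians and the dotted line the median of all genes. Members of the neuron, ribosome and proteasome lists lie close to the line.

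Acute-phase proteins, which the liver makes in fever, rose at 11 of 18 tested genes, with a median of 3.21. Their median was 1.66 under normexp background correction, again with 11 rises. Saa3, a serum amyloid read at chr7:53968031-53968090 (mm9), stood at −6.81, −7.31, −7.29 and −6.78 on the saline arrays and 2.4, 2.47, 2.16 and 3.83 on the LPS arrays. No saline array was well above background and all LPS arrays were bright, a rise of at least 199-fold (adjusted p = 2.11e-06). Lcn2, which binds bacterial iron carriers, stood at −2.77, −5.39, −4.42 and −3.53 on the saline arrays and 1.1, 1.4, 1.24 and 2.39 on the LPS arrays, and rose by 5.56 ± 0.55 (adjusted p = 0.000545). The protease inhibitors Serpina3f (at least 12.3-fold, adjusted p = 1.11e-05) and A2m (at least 14.1-fold, adjusted p = 4.19e-06), the haemoglobin carrier Hp (4.13 ± 0.37) and the serum amyloids Saa1 and Saa2 (3.76 ± 0.28 and 4.42 ± 0.23) rose too. The probes of Saa1 and Saa2 may share signal, since these genes are close copies. Ptx3, a pentraxin, was represented by its brightest probe, which changed by −0.28 ± 0.14, while its other probes changed by 6.99 and 7.29, and the probes of this gene thus disagree. Orm1, Orm2 and Orm3 and the fibrinogen chains did not pass the filter. In the complement system 5 of 16 genes rose, led by Cfb of the alternative pathway (3.95 ± 0.35), the protease C1ra (3.13 ± 0.19) and C3 (2.26 ± 0.24). The 3 chains of C1q, made by microglia, changed by 0.15, 0.17 and −0.22, and none was called. 4 acute-phase genes and 1 complement gene passed the filter only through the LPS arrays, which favoured a rise. For the complement genes, rises numbered 3 without any 1 of saline replicate 3 and LPS replicates 1 and 4, 8 without saline replicate 1, 3 under normexp and 3 with all 16 arrays, against 5, and the median under normexp was 0.37.

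Markers of reactive astrocytes, a list that shares Cxcl10, Gbp2, Lcn2 and further genes with those above, rose at 18 of 23 genes. Those in no list above included the transporter Slc10a6 (at least 14.8-fold, adjusted p = 1.68e-06), the protease inhibitor Timp1 (4.28 ± 0.25) and Gfap (1.13 ± 0.14), the astrocyte filament. Gfap stood at 0.23, 0.33, 0.52 and 0.48 on the saline arrays and 1.73, 1.56, 1.46 and 1.34 on the LPS arrays. Of 14 general astrocyte markers 2 rose and none fell. Besides Gfap it was Sox9 (1.09 ± 0.19). The water channel Aqp4 and the glutamate transporters Slc1a2 and Slc1a3 changed by 0.18, −0.78 and −0.18, and none was called. Aqp4 changed by 0.69 and 0.79 at its other probes. 5 reactive astrocyte genes passed the filter only through the LPS arrays, which favoured a rise. For the general astrocyte genes, rises numbered 1 without any 1 of saline replicates 3 and 4 and LPS replicates 1 and 3, against 2, and falls numbered 1 without any 1 of saline replicate 1 and LPS replicate 4, against 0. Among genes above with probes that disagree, Gfap changed by 1.15 and 1.93 at its other probes and Sox9 changed by −0.16 and 1.76 at its other probes. Leaving out any 1 of saline replicates 3 and 4 and LPS replicates 1 and 3 ended the call of Sox9 (adjusted p up to 0.0663).

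Proteases and inhibitors of the matrix rose at 12 of 19 tested genes, with a median of 1.42. Normexp background correction gave 10 rises and a median of 0.687. Mmp3 (at least 26.6-fold, adjusted p = 1.76e-06) and Mmp13 (at least 7.9-fold, adjusted p = 2.75e-06), which cut matrix proteins, were at background on every saline array. Plaur, the receptor of urokinase, rose by 4.34 ± 0.15 (adjusted p = 2.12e-06), and Adamts1 (3.19 ± 0.15), Emp1 (2.76 ± 0.22) and Cd44 (2.38 ± 0.16) rose as well. Of 23 collagen and laminin genes 2 rose and 2 fell, with Col1a1 at −0.99 ± 0.21 and Col1a2 at −1.06 ± 0.20. 3 matrix protease and inhibitor genes passed the filter only through the LPS arrays, which favoured a rise. For the collagen and laminin genes, rises numbered 0 without any 1 of saline replicates 2, 3 and 4 and LPS replicates 1, 2, 3 and 4, 4 without saline replicate 1, 0 under normexp and 1 with all 16 arrays, against 2, and falls numbered 0 to 1 without any 1 of saline replicates 3 and 4 and LPS replicates 1, 2, 3 and 4, against 2. Plaur changed by 2.51 at its other probe. Without any 1 of saline replicates 3 and 4 and LPS replicates 1, 2, 3 and 4 the call of Col1a1 did not hold (adjusted p up to 0.112). The call for Col1a2 was lost without any 1 of saline replicates 3 and 4 and LPS replicates 1, 2 and 3 (adjusted p up to 0.0932).

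Among genes of the brain endothelium and its transporters more fell than rose. Of 16 endothelial markers 7 fell and 1 rose, with a median of −0.81. Of 22 transporters of the blood-brain barrier 8 fell and 1 rose, with a median of −0.39. Slc38a5, read at chrX:7857226-7857285 (mm9), stood at 1.63, 1.14, 0.83 and 0.92 on the saline arrays and −2.79, −2.23, −2.78 and −2.53 on the LPS arrays, and fell by 3.72 ± 0.16 (adjusted p = 5.76e-06). Slco1a4, a carrier of organic anions, stood at −1.45, −0.72, −0.26 and −0.36 on the saline arrays and −3.32, −3.54, −3.63 and −4.0 on the LPS arrays, and fell by 2.92 ± 0.22 (adjusted p = 0.0001). The groups did not overlap for either gene, although Slco1a4 was lowest of the saline arrays on replicate 1. The drug pump Abcb1a changed by −2.4 ± 0.38, the iron exporter Slc40a1 by −2.96 ± 0.19 and the thyroid hormone carrier Slco1c1 by −1.16 ± 0.17. Slc16a4, a monocarboxylate carrier, was at background on every LPS array and fell at least 3.95-fold (adjusted p = 7.11e-05). The zinc and iron carrier Slc39a14 was the member that rose (1.05 ± 0.17), and the glucose carrier Slc2a1 (0.44 ± 0.13) was not called with all 8 arrays but was without saline replicate 1 (adjusted p = 0.045). 2 endothelial marker genes and 2 barrier transporter genes passed the filter only through the saline arrays, which favoured a fall. For the endothelial marker genes, rises numbered 0 without any 1 of saline replicates 3 and 4 and LPS replicates 1 and 3 and 3 without saline replicate 1, against 1, and the median under normexp was −0.51. For the barrier transporter genes, rises numbered 4 without saline replicate 1 and 2 under normexp, against 1. Under normexp background correction Abcb1a was not called.

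Of 21 genes of tight junctions and vascular growth receptors 5 fell and 3 rose, with a median of −0.24. Sox17, an endothelial factor outside this list, stood at −0.90, −0.63, −1.11 and −1.03 on the saline arrays and −2.91, −2.83, −2.93 and −2.9 on the LPS arrays, with no overlap. It fell by 1.98 ± 0.14 (adjusted p = 6.93e-05), and Sox18, also outside the list, fell by 2.06 ± 0.20. Angpt2, which blocks the receptor Tek, rose by 4.42 ± 0.79 (adjusted p = 0.0147), from levels of −2.18, −2.53, −2.03 and −6.14 on the saline arrays to 1.28, 1.35, 1.0 and 1.16 on the LPS arrays. Saline replicate 4 was at background there, and without it the rise was 3.44 (adjusted p = 9.85e-05). Tek fell by 1.73 ± 0.25 (adjusted p = 0.0045), its relative Tie1 by 1.74 ± 0.31 (adjusted p = 0.0142) and the growth factor receptor Kdr fell by 1.27 ± 0.16 (adjusted p = 0.00193). Cldn5, the main claudin of brain vessels, changed by −1.07 ± 0.28 (adjusted p = 0.0839) and was called without saline replicate 1 (adjusted p = 0.0337). Cdh5, which joins endothelial cells, and Robo4 rose, by 1.3 ± 0.23 and 1.4 ± 0.17. Pecam1, a general endothelial marker, changed by −0.02 ± 0.13. Of 12 markers of pericytes and smooth muscle none was called (4 at an unadjusted p under 0.05, median −0.14). 1 junction and growth receptor gene passed the filter only through the saline arrays, which favoured a fall. For the junction and growth receptor genes, rises numbered 1 without any 1 of LPS replicates 1 and 3, against 3, and falls numbered 2 without any 1 of saline replicate 3 and LPS replicates 1 and 2 and 3 under normexp, against 5. For the pericyte and smooth muscle genes, falls numbered 1 without any 1 of saline replicates 1 and 2 and 1 with all 16 arrays, against 0. Cdh5 changed by 1.96 at its other probe. Angpt2 was no longer called without any 1 of LPS replicates 1, 2 and 3, with an adjusted p of up to 0.0655. Leaving out any 1 of saline replicate 3 and LPS replicates 1 and 2 ended the call of Tie1 (adjusted p up to 0.0693). Without any 1 of saline replicates 3 and 4 and LPS replicates 1 and 3 the call of Cdh5 did not hold (adjusted p up to 0.0663). With normexp background correction the call of Tek and Tie1 was lost.

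Of 13 tested genes of leukocyte adhesion to the vessel wall 2 rose and 2 fell, with a median of −0.01. Icam1, the integrin ligand on which leukocytes stop, stood at −1.25, −2.29, −2.17 and −2.16 on the saline arrays and 1.35, 1.82, 1.54 and 1.64 on the LPS arrays, with no overlap, and rose by 3.56 ± 0.23 (adjusted p = 4.22e-05), and Selp, on which they roll, rose by 2.17 ± 0.24 (adjusted p = 0.00115). Vwf, which catches platelets, stood at 2.68, 1.44, 1.49 and 1.83 on the saline arrays and −0.63, −0.74, −0.45 and 0.45 on the LPS arrays, and fell by 2.2 ± 0.33 (adjusted p = 0.00602). Vcam1 changed by 0.44 ± 0.15 and was not called, and Sele did not pass the filter on dim probes. Among coagulation genes F10 rose at least 6.52-fold (adjusted p = 0.000358), and the protein C receptor Procr rose by 2.12 ± 0.20. In the Wnt list 4 of 24 genes fell, namely Sox17, Sox18, the receptor Fzd6 (−1.05 ± 0.23) and the factor Tcf7 (−0.97 ± 0.17), and in the Notch list 2 of 16 fell, namely the targets Hes5 (−2.23 ± 0.26) and Heyl (−1.9 ± 0.20). Axin2, a general Wnt target, changed by −0.41 ± 0.19, and the ligands Wnt7a and Wnt7b by −0.40 and −0.30. 1 Notch gene passed the filter only through the LPS arrays, which favoured a rise. For the leukocyte adhesion genes, rises numbered 1 with all 16 arrays, against 2, and falls numbered 1 without any 1 of saline replicates 3 and 4 and LPS replicates 1, 2, 3 and 4, against 2. For the Wnt genes, rises numbered 2 without saline replicate 1, against 0, and falls numbered 2 without any 1 of saline replicate 4 and LPS replicates 1, 2, 3 and 4 and 2 under normexp, against 4. For the Notch genes, rises numbered 1 without saline replicate 2, against 0. Vcam1 changed by 1.57 at its other probe (lowest adjusted p = 0.00748). The call for Fzd6 was lost without any 1 of saline replicates 2, 3 and 4 and LPS replicates 1, 2, 3 and 4 (adjusted p up to 0.156). Tcf7 was no longer called without any 1 of saline replicate 4 and LPS replicates 1, 2, 3 and 4, with an adjusted p of up to 0.0701. The call of Fzd6 and Tcf7 was not made after normexp background correction.

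**Figure D5:**
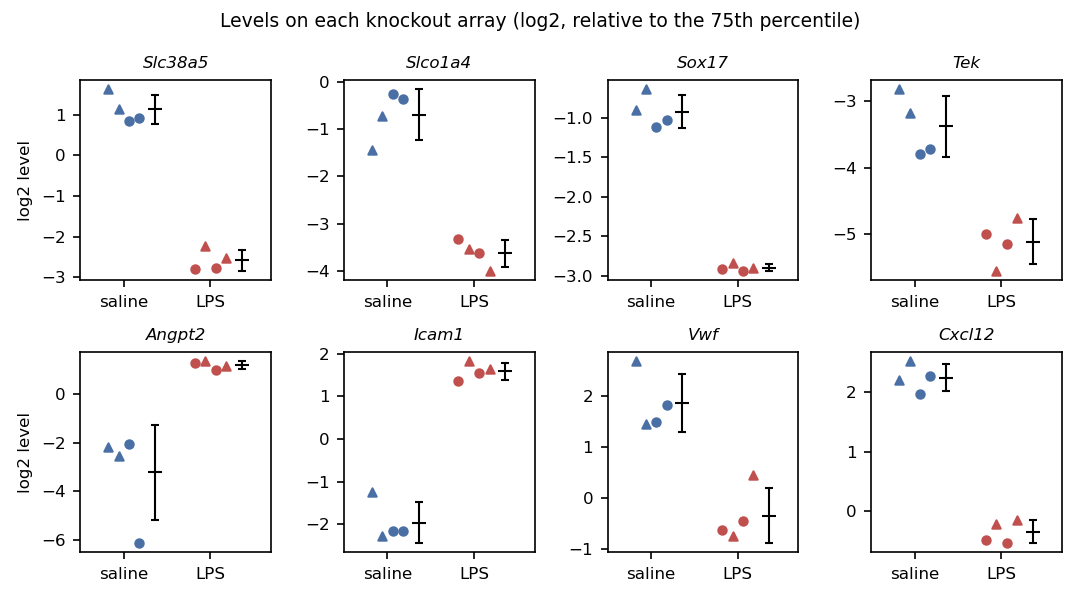
Levels (log2 over the 75th percentile of the array) of 8 genes of the vessel wall on each knockout array, blue for saline and red for LPS, with circles for slide 3 and triangles for slide 4. Black bars show the mean and SD of 4 arrays. Angpt2 and Icam1 lie higher on every LPS array than on any saline array and the other 6 genes lower, and saline replicate 4 lies alone for Angpt2.

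Of 12 markers of perivascular and meningeal macrophages 7 fell and none rose, with a median of −1.06, and the mean level of the list ran from −1.98 to −1.38 on the saline arrays and from −2.95 to −2.65 on the LPS arrays. The lectin Cd209f stood at −1.34, −2.27, −2.27 and −1.66 on the saline arrays and −5.17, −4.89, −4.36 and −5.13 on the LPS arrays, with no overlap, and fell by 3.0 ± 0.28 (adjusted p = 0.0004), but its other probe changed by −0.06. The hyaluronan receptor Lyve1 fell by 1.27 ± 0.15 (adjusted p = 0.00174) and Cd163, the receptor for haptoglobin with haemoglobin, by 1.42 ± 0.20 (adjusted p = 0.00404). Mrc1, the mannose receptor, changed by 0.34 ± 0.32 and was not called. Of 20 microglial markers 5 fell and none rose, with a median of −0.52. Gpr34 was at background on every LPS array and fell at least 4.68-fold (adjusted p = 0.003), from −4.91, −2.4, −1.85 and −1.8 on the saline arrays to −6.71, −7.14, −6.41 and −6.7 on the LPS arrays. Slc2a5, the fructose carrier, fell by 2.12 ± 0.21 (adjusted p = 0.000608) and Olfml3 by 1.49 ± 0.19 (adjusted p = 0.00243). Csf1r and Aif1 changed by 0.01 and −0.53, and neither was called. The other probes of Csf1r changed by −0.44 and −0.64. Without saline replicate 1 the counts were 8 of 12 and 7 of 20. 3 perivascular and meningeal macrophage genes and 2 microglial genes passed the filter only through the saline arrays, which favoured a fall. For the perivascular and meningeal macrophage genes, falls numbered 3 to 4 without any 1 of saline replicate 4 and LPS replicates 1, 2 and 3 and 2 under normexp, against 7, and the median under normexp was −0.53. Under normexp background correction Lyve1 and Cd163 were not called.

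Of 12 neutrophil markers on the array 5 were tested, and 3 rose. S100a8 and S100a9, calcium-binding proteins of neutrophils and monocytes, rose by 2.68 ± 0.41 and 2.21 ± 0.32. No neutrophil marker was called by limma on all 16 arrays (3 at an unadjusted p under 0.05). Camp, Ngp, Ltf and Elane, granule proteins of neutrophils, did not pass the filter. The mean level of the neutrophil list was −1.26 on LPS replicate 4 and −2.59 to −2.16 on the other LPS arrays. Of 12 monocyte markers 10 were tested and 5 rose, among them the inhibitory receptor Cd300lf (6.87 ± 0.39), Plac8 (3.74 ± 0.50) and Chil3 (2.91 ± 0.39), while Ccr2 did not pass the filter and Ly6c2 changed by 0.04 ± 0.23. Of 12 markers of T and NK cells 5 were tested and none was called (1 at an unadjusted p under 0.05), with Cd3d, Cd3g, Cd8a and Gzma below the filter. The part of blood cells in the rises above was not tested. 1 neutrophil gene and 4 monocyte genes passed the filter only through the LPS arrays, which favoured a rise. 1 T and NK cell gene passed it only through the saline arrays, which favoured a fall. For the neutrophil genes, the median under normexp was 0.47. For the T and NK cell genes, rises numbered 1 without saline replicate 1, against 0.

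Markers of fibroblasts and meninges fell at 5 of 12 genes and rose at 1, with a median of −0.85. Slc22a6, a carrier of organic anions, fell by 2.15 ± 0.33 (adjusted p = 0.00616) and the GABA carrier Slc6a13 by 1.79 ± 0.36 (adjusted p = 0.0247), whereas Dcn and Pdgfra changed by 0.15 and 0.13. The level of this list was 0.92 on saline replicate 1 and 0.36 to 0.54 on the other saline arrays, and without replicate 1 the counts were 5 and 2. In the oligodendrocyte lineage 2 of 13 mature markers fell, led by Aspa (−1.56 ± 0.14), and of 11 markers of precursors 1 fell, Gpr17 (−1.6 ± 0.19). The myelin gene Mbp changed by −0.11. For the fibroblast and meningeal genes, rises numbered 0 without any 1 of saline replicates 2, 3 and 4 and LPS replicates 1, 2, 3 and 4, 2 without saline replicate 1, 0 under normexp and 0 with all 16 arrays, against 1, and falls numbered 1 without any 1 of saline replicates 3 and 4 and LPS replicates 1, 2 and 3, against 5. For the mature oligodendrocyte genes, falls numbered 1 under normexp and 1 with all 16 arrays, against 2. For the oligodendrocyte precursor genes, falls numbered 4 without saline replicate 1 and 2 under normexp, against 1. Leaving out any 1 of saline replicates 3 and 4 and LPS replicates 1, 2 and 3 ended the call of Slc6a13 (adjusted p up to 0.0994).

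Genes that respond to glucocorticoids rose at 13 of 27 genes and none fell, with a median of 0.99. Fkbp5, a chaperone of the receptor, stood at −0.25, −0.30, −0.10 and 0.51 on the saline arrays and 1.66, 1.77, 1.82 and 2.25 on the LPS arrays, and rose by 1.91 ± 0.23 (adjusted p = 0.00153). Cebpd (3.6 ± 0.17), Plin4 (2.72 ± 0.35), Angptl4 (2.72 ± 0.20) and Errfi1 (1.93 ± 0.28) rose as well. Lcn2 and Nfkbia are in this list and in those of inflammation above. Tsc22d3, also called Gilz, changed by 0.46 ± 0.15 and Per1 by 0.44 ± 0.36, and neither was called with all 8 arrays. The other probes of Tsc22d3 changed by 0.79 and 0.81. Without saline replicate 1, 19 of the genes rose and 1 fell, the receptor gene Nr3c1 (−0.60 ± 0.12). With all 8 arrays Nr3c1 changed by −0.255, and by 0.32, −0.76 and 0.07 at its other probes. For the glucocorticoid-responsive genes, falls numbered 1 without saline replicate 1, against 0.

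Of the enzymes that lead to prostaglandin E2, 1 rose. Ptges, the inducible terminal enzyme, rose by 2.2 ± 0.22 (adjusted p = 0.000535), from −3.27 to −2.75 on the saline arrays to −1.41 to −0.52 on the LPS arrays. Ptgs2, the enzyme above it, changed by 1.06 ± 0.36 and was not called (adjusted p = 0.183). 4 genes of 17 fell, among them the prostaglandin D synthase Hpgds (−2.19 ± 0.28) and the thromboxane synthase Tbxas1 (−1.38 ± 0.23). Of 18 tested enzymes of nitric oxide, biopterin and kynurenine 2 rose. They were Gch1, which opens biopterin synthesis (2.52 ± 0.19), and Ido1, which opens the kynurenine path (1.41 ± 0.21). Nos2, Kmo and Kynu did not pass the filter. 1 nitric oxide, biopterin and kynurenine gene passed the filter only through the LPS arrays, which favoured a rise. 3 prostaglandin genes passed it only through the saline arrays, which favoured a fall. For the prostaglandin genes, rises numbered 2 without saline replicate 2 and 2 with all 16 arrays, against 1, and falls numbered 1 under normexp, against 4. For the nitric oxide, biopterin and kynurenine genes, rises numbered 1 under normexp and 1 with all 16 arrays, against 2. Gch1 changed by 0.87 at its other probe. With normexp background correction the call of Hpgds and Ido1 was lost.

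Acod1, which makes itaconate, rose at least 12.3-fold (adjusted p = 6.6e-06) and Hcar2, the receptor of butyrate and beta-hydroxybutyrate, at least 14.5-fold (adjusted p = 6.95e-07). Ch25h, which makes 25-hydroxycholesterol, stood at −3.45, −2.14, −2.22 and −1.48 on the saline arrays and 1.72, 2.16, 1.9 and 2.37 on the LPS arrays, with no overlap, and rose by 4.36 ± 0.38 (adjusted p = 0.000275). Abca1, the cholesterol exporter, changed by 1.16 ± 0.21 (adjusted p = 0.0164). Of 26 genes of cholesterol synthesis and lipid transport 3 rose and 1 fell, and the synthetic enzyme Sqle changed by 0.03. Iron genes held 6 rises and 1 fall in 22, with Hmox1, which breaks down haem, at 1.91 ± 0.14 and Mt2, a metallothionein, at 1.29 ± 0.14, while the ferritin chains Fth1 and Ftl1 changed by −0.05 and 0.09. 1 iron gene passed the filter only through the LPS arrays, which favoured a rise. For the cholesterol and lipid genes, falls numbered 0 without any 1 of saline replicates 3 and 4 and LPS replicates 1, 2, 3 and 4 and 2 without saline replicate 1, against 1. For the iron genes, falls numbered 2 without saline replicate 1, against 1. Without any 1 of saline replicate 4 and LPS replicates 1, 2, 3 and 4 the call of Abca1 did not hold (adjusted p up to 0.0706).

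Genes of regulated cell death rose at 9 of 22 tested genes, with a median of 0.58. Mlkl, which opens the cell membrane in necroptosis, rose at least 12.5-fold (adjusted p = 0.000129) and its kinase Ripk3 at least 2.76-fold (adjusted p = 0.0023). The death receptor Fas rose by 1.79 ± 0.15 (adjusted p = 0.00023), and the inhibitors Birc3 (2.55 ± 0.15) and Bcl2a1b (3.55 ± 0.16) rose as well. Bcl2, Bax and Mcl1 changed by −0.16, −0.07 and 0.20. Of immediate early genes 5 rose of 24, led by Maff (3.85 ± 0.21), Atf3 (3.6 ± 0.47) and Ier3 (2.12 ± 0.14). Those used as signs of neuronal activity were not called, with Arc at −0.34 ± 0.15, Egr1 at −0.45 ± 0.17 and Fos at 1.28 ± 0.31, except Npas4, which changed by −1.34 ± 0.31 (adjusted p = 0.0493) and was not called without saline replicate 1 (adjusted p = 0.0551). Fos was called without that array (adjusted p = 0.00331). 4 cell death genes and 1 immediate early gene passed the filter only through the LPS arrays, which favoured a rise. For the immediate early genes, rises numbered 8 without saline replicate 1, against 5, and falls numbered 0 without any 1 of saline replicates 2, 3 and 4 and LPS replicates 2 and 3, 2 under normexp and 0 with all 16 arrays, against 1. Mcl1 changed by 1.64 at its other probe (lowest adjusted p = 0.0111). The call for Npas4 was lost without any 1 of saline replicates 1, 2, 3 and 4 and LPS replicates 2 and 3 (adjusted p up to 0.171). The call of Ripk3 was not made after normexp background correction.

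Genes of neurons were near the median of all genes. None of 15 neuronal markers, 26 subunits of GABA and glutamate receptors or 19 monoamine and acetylcholine receptors was called, with medians of −0.08, −0.10 and −0.13. At an unadjusted p under 0.05, which 16.8% of all genes tested reached, there were 0, 5 and 5 of them. Of 22 neuropeptides and their receptors 1 was called, a share near the 4.94% called over all genes. This was the cholecystokinin receptor Cckbr, which fell by 0.99 ± 0.14 (adjusted p = 0.00386), and by 0.42 at its other probe. Bdnf, the growth factor of synapses, stood at 1.64, 2.04, 1.66 and 1.69 on the saline arrays and 0.82, 0.99, 0.94 and 0.88 on the LPS arrays, and fell by 0.85 ± 0.14 (adjusted p = 0.0117). It was the only gene called of 17 neurotrophins and receptors, whose median was −0.085. Prkcd, a marker of central amygdala neurons, rose by 1.41 ± 0.25 (adjusted p = 0.0156). Among 14 markers of striatum and central amygdala Prkcd alone was called, and their median was 0.13. Sst, Npy, Penk and Tac1 changed by −0.35, −0.28, 0.14 and 0.41. None of 34 ribosomal and 26 oxidative phosphorylation genes was called (3 and 2 at an unadjusted p under 0.05, medians −0.19 and −0.24). With normexp background correction none of the genes in the 5 lists of this paragraph without a call was called either. 1 neuropeptide gene passed the filter only through the LPS arrays, which favoured a rise. 1 GABA and glutamate receptor gene passed it only through the saline arrays, which favoured a fall. For the GABA and glutamate receptor genes, falls numbered 1 without LPS replicate 4, against 0. For the monoamine and acetylcholine receptor genes, rises numbered 1 without saline replicate 1, against 0, and falls numbered 1 without saline replicate 1, against 0. For the neuropeptide genes, rises numbered 2 without saline replicate 2, against 0, and falls numbered 2 without saline replicate 1, against 1. For the neurotrophin genes, rises numbered 3 without saline replicate 1, 1 without saline replicate 2 and 1 with all 16 arrays, against 0. Their falls numbered 0 without any 1 of saline replicates 3 and 4 and LPS replicate 1, against 1. For the striatum and central amygdala genes, rises numbered 2 without saline replicate 1, against 1. Bdnf was no longer called without any 1 of saline replicates 3 and 4 and LPS replicate 1, with an adjusted p of up to 0.0645. Leaving out any 1 of saline replicate 4 and LPS replicates 1, 2 and 3 ended the call of Prkcd (adjusted p up to 0.069).

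The remaining genes among the 20 largest falls were outside the lists above or in them for other roles. They were Dapl1 (−3.35 ± 0.56), Tnfrsf17, the plasma cell receptor for survival (at least 3.37-fold, adjusted p = 0.000536), the sphingolipid enzyme Degs2 (−2.94 ± 0.27), Susd3 (−2.87 ± 0.23), Gkn3 (−2.75 ± 0.23), Ranbp3l (−2.26 ± 0.18) and Ushbp1 (−2.15 ± 0.27) and Olfml2a (at least 2.4-fold, adjusted p = 0.00672). Dapl1 stood at −1.2, −2.4, −2.41 and −2.73 on the saline arrays and −5.81, −6.97, −4.72 and −4.65 on the LPS arrays, with signal well above background on 1 LPS array. Gkn3, a marker of arterial endothelium in brain, stood at 0.68, 0.09, −0.23 and −0.60 on the saline arrays and −2.62, −2.83, −2.96 and −2.67 on the LPS arrays. The groups did not overlap for either gene. Under normexp background correction Tnfrsf17 and Olfml2a were not called.

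In the authors' deposited table, which gives a linear fold change between the means of the same arrays and is not independent of them, 174 of the 190 called genes named here were listed at the same probe, and 174 of these had the same direction. The authors' deposited table gives 989-fold for Cxcl10, 423-fold for Ccl2 and 13.2-fold, marked as down, for Slc38a5.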

How the data were processed

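Agilent one-colour arrays (mouse design on mm9, read with Feature Extraction 9.5.1.1 per the file headers) gave an intensity for each spot, background-subtracted by the scanner software, per the file headers. The deposited tables of the authors add log2 normalised values per group and a linear fold between group means (a ratio), per the file headers, and 32 of their columns of detection calls were not used. From the intensity, log2 values were taken relative to each array's 75th percentile, leaving out 1417 control spots and outlier spots. Probes well above background on at least 3 of 4 arrays of at least 1 group were kept (26139 of 41174). A gene was its brightest kept probe, named through RefSeq for 24844 probes and by the file for 16330. Of the 18270 names tested as genes, 14113 were RefSeq gene symbols. The 8 arrays were fitted with limma 3.58.1 (R 4.3.3), slide as a block, with Benjamini-Hochberg adjustment over 18270 genes and calls at 0.05. The fit was tested on simulated data.

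Bounds set the bright group's mean against the higher of the lowest signal well above background and the probe's own signal on the dim arrays. The bounds themselves were not tested. Genes were named as the 20 largest rises and 20 largest falls, the called members of each list by size, up to 8 a direction, members not called that the text compares with them, and P2rx7. Members and lists were chosen with earlier results of these data known. Alternatives covered the slide term, scaling, background correction, filters, probe choice, the threshold and each array left out. Normexp started from the raw signal and its local background, with offset 50, leaving out 0 to 7 spots an array dimmer than their local background. With 4 arrays a group, their number limits the precision.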

Additional observations from a re-analysis of the deposited data

Results flagged for a closer look

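Of 514 sets of 4 arrays, 1 for each gene named here in each group, 50 held an array far from the other 3, by a gap to its nearest neighbour that, as a share of the whole range, passed Dixon's critical value. Chance flags about 1 in 20 such sets. Saline replicate 1 was the far array in 29 of them, and it lay highest (log2 level in brackets) for Stat2 (1.45), Cxcl1 (−6.53), Nfkbia (4.29), Tnfrsf1b (−3.21), Zbp1 (−3.24), Isg20 (−2.1), Ifi27 (4.38), Psmb8 (0.95), Cldn5 (3.74), Icam1 (−1.25), Procr (−1.58), Heyl (−0.21), Slc22a6 (2.9), Mbp (5.66), Mcl1 (4.02), Sst (6.2), Ushbp1 (−0.73), Olfml2a (−2.9), Hspa12b (0.86) and Bag3 (0.13). The same array lay lowest for Abcb1a (−4.48), Mrc1 (−4.6), Errfi1 (0.20), Nr3c1 (0.28), Sqle (1.38), Fos (−3.06), Tac1 (−0.30), Trib1 (−0.68) and Hspa5 (4.09). LPS replicate 1 lay highest for A2m (−0.67) and lowest for Nod2 (−2.82) and Procr (−0.39). LPS replicate 2 lay lowest for Cgas (−2.59) and Bcl2 (0.30). LPS replicate 3 lay highest for Wnt7b (−0.65) and lowest for Pdgfra (0.62). LPS replicate 4 lay highest for Myd88 (1.09), Nfkbie (−0.21), Nt5e (−0.21) and Cldn5 (2.24) and lowest for Mmp13 (−2.28) and Per1 (1.48). Saline replicate 2 lay highest for Bdnf (2.04) and lowest for Lbp (−4.24) and Ccl7 (−7.17). Saline replicate 3 lay highest for Myd88 (−0.70) and lowest for Map3k8 (−4.96) and Cebpb (1.45). Saline replicate 4 lay lowest for Il1r1 (−6.12) and Angpt2 (−6.14). For Angpt2 and Il1r1 saline replicate 4 lay far below the other saline arrays, which ran from −2.53 to −2.03 and from −1.36 to −0.52. The variation of spike-in signals was 6.1% on LPS replicate 3 and 3.5% to 3.9% on the other LPS arrays.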

How the results depend on the processing

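The count of called genes stayed within 1.5 times of 902 without the slide term, with slide as a random block, within slide 3, with all 16 arrays in 1 fit, with median or quantile scaling, under normexp background correction, with both other filters on dim probes, with the mean of a gene's probes and with an intensity trend. It was 535 at a threshold of 0.01 and 198 within slide 4 alone, which holds 2 arrays a group, saline replicate 1 among them. Leaving out 1 array gave 582 to 1748 called genes, the highest without saline replicate 1 and the lowest without LPS replicate 1. With the replicate number as a block the count was 530. Deviations of same-numbered arrays correlated at −0.40, −0.19, 0.40 and −0.25, and those of arrays on the same slide at 0.29 and 0.09 on average. Only arrays numbered 2 and 3 shared a slide with their namesakes, so these values do not settle whether the numbers pair arrays. The numbers are those of the deposited arrays, while a deposited column gives number 3 to saline replicate 2. Of the 190 called genes named here none changed sign under these alternatives, 168 were called without each array in turn and 88 under every alternative that could test them. Ptx3, which was not called through its brightest probe, changed by 4.67 as the mean of its probes, against −0.28. The replicate block ended 23 of these calls, normexp 23, all 16 arrays 14 and slide 4 alone 95. Of all 902 called genes 472 had a change over 1.5 times smaller under normexp, which adds an offset to every signal. The share of called genes that rose was 65.4%, with 911 of 1748 without saline replicate 1 and 417 of 530 with the replicate block. Falls moved more than the total, from 312 to 163 under normexp, 113 with the replicate block, 13 within slide 4, 113 at a threshold of 0.01 and 132 to 837 on leaving out 1 array. Of 63 lists 20 had a median that changed sign under at least 1 alternative, reaching at most 0.38 on the other side. The list of B and plasma cells gave no median with the filter on all 8 arrays. The causes of these moves were not tested. Depth of signal limits the dim genes, since 97 risen genes had no saline array and 20 fallen genes no LPS array well above background.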

Other observations

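Transcription factors of the C/EBP family and of cellular stress rose at 4 of 19 tested genes, none fell, and the list median was 0.26. Cebpb, which drives acute-phase genes, stood at 2.01, 1.97, 1.45 and 2.03 on the saline arrays and 4.34, 4.22, 4.07 and 3.65 on the LPS arrays, with no overlap, and rose by 2.2 ± 0.21 (adjusted p = 0.00048), and the kinase-like regulator Trib1 rose by 2.12 ± 0.19. The targets of the unfolded protein response Hspa5 and Ddit3 changed by −0.10 and −0.20. Among 22 heat shock chaperones Hspa12b, which is known from endothelium, fell by 1.85 ± 0.25 (adjusted p = 0.00313) and Bag3 changed by 1.19 ± 0.20, while Hspa1a and Hspa1b changed by 0.00 and −0.04. Of 26 genes of oxidant defence and hypoxia 3 rose, namely Hmox1, the glycolytic regulator Pfkfb3 (1.77 ± 0.15) and hexokinase Hk2 (1.51 ± 0.14). Of 19 cell cycle genes 2 rose, Myc (1.85 ± 0.18) and the inhibitor Cdkn1a (1.29 ± 0.20), and the proliferation marker Mki67 changed by 0.44 ± 0.18. 1 heat shock gene passed the filter only through the LPS arrays, which favoured a rise. For the heat shock genes, rises numbered 0 without any 1 of saline replicates 3 and 4 and LPS replicates 2 and 3 and 2 without saline replicate 1, against 1. For the oxidant defence and hypoxia genes, rises numbered 6 without saline replicate 1, against 3. Among genes above with probes that disagree, Bag3 changed by 0.09 at its other probe and Myc changed by 1.07 and 2.16 at its other probes. Without any 1 of saline replicates 3 and 4 and LPS replicates 2 and 3 the call of Bag3 did not hold (adjusted p up to 0.058).

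In the TGF-beta and BMP list of 23 genes 2 fell and 1 rose, beside 4.94% called over all genes. The endothelial receptor Acvrl1 changed by −1.66 ± 0.37 (adjusted p = 0.0412). Of 19 clock genes 1 was called, Bhlhe40 (0.59 ± 0.14), a share near the 4.94% called over all genes. None of 7 tested genes of ependyma and choroid plexus was called (2 at an unadjusted p under 0.05), and Ttr, the main transcript of choroid plexus, did not pass the filter on dim probes. None of 5 erythroid genes was called (2 at an unadjusted p under 0.05), and the haemoglobin gene Hba-a1 changed by −0.72 ± 0.27. 1 clock gene passed the filter only through the LPS arrays, which favoured a rise. 2 TGF-beta and BMP genes passed it only through the saline arrays, which favoured a fall. For the TGF-beta and BMP genes, rises numbered 0 without any 1 of saline replicates 3 and 4 and LPS replicates 1, 2, 3 and 4, 3 without saline replicate 1 and 0 with all 16 arrays, against 1, and falls numbered 0 to 1 without any 1 of saline replicates 3 and 4 and LPS replicates 1, 2, 3 and 4 and 1 under normexp, against 2. For the clock genes, rises numbered 0 without any 1 of saline replicates 2, 3 and 4 and LPS replicates 1, 2, 3 and 4, 2 without saline replicate 1 and 0 under normexp, against 1. For the ependymal and choroid plexus genes, rises numbered 1 without saline replicate 1, against 0. The call for Acvrl1 was lost without any 1 of saline replicates 3 and 4 and LPS replicates 1, 2, 3 and 4 (adjusted p up to 0.13). Bhlhe40 was no longer called without any 1 of saline replicates 2, 3 and 4 and LPS replicates 1, 2, 3 and 4, with an adjusted p of up to 0.206. With normexp background correction the call of Acvrl1 and Bhlhe40 was lost.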
